A study of Mus musculus with 12 samples.

Results

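The 8 genes described here are Bcl2, Bcl2l1, Mcl1, Bak1, Bid, Bcl2l11, Bad and Casp8. They are members of the BCL2 family and 1 caspase from outside the list of p53 targets of cell death used below. They were found by their symbols among the 55484 genes of the deposited table, where each of them had 1 entry. Expression was measured by RNA sequencing of mouse small intestine in 12 libraries, 3 in each of 4 groups. The Control libraries came from wild type mice with no stated treatment, and the Melphalan libraries from mice given melphalan, an alkylating chemotherapy drug that crosslinks DNA. The Mel+MSC and MSC+Mel libraries came from mice given melphalan and mesenchymal stem cells, which the series names as cells from human umbilical cord. The labels give no dose, time, strain or age and do not say what the order of the names means, so these serve here as names of groups and nothing more. Separate animals are not stated for the libraries of a group. The p-values thus measure the spread among the libraries alone, part or all of which may be technical.

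BCL2 family proteins meet at the outer membrane of the mitochondrion and decide whether it stays closed. The guardians BCL2, BCL-XL (Bcl2l1) and MCL1 hold the effectors BAK (Bak1) and BAX inactive, and small sensor proteins that carry only a BH3 helix, such as BIM (Bcl2l11), BAD and BID, fill the groove of the guardians or activate the effectors directly. Open effectors release cytochrome c, which leads to the activation of caspases. Caspase-8 (Casp8) is the initiator protease of death receptors and cuts BID, which ties the receptor route to the mitochondrial one. In the gut lining, which renews quickly, BCL-XL and MCL1 are known as guardians of epithelial cells and BCL2 is known mainly from lymphocytes.

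The BH3 core is shown here as the coding sequence of each of the 7 BCL2 family genes because these proteins bind each other through it. It was searched in the translated GENCODE M21 transcripts (build GRCm38, coding strand) as a leucine, any 3 residues, a small residue (glycine, serine or alanine) and an aspartate, and each of the 7 proteins held the pattern once. Capitals mark the codons of the small residue and the aspartate. For Casp8 the stretch around the active-site cysteine is shown, with the cysteine codon in capitals.
Bcl2: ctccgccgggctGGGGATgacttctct
Bcl2l1: ctgagagaggcaGGCGATgagtttgaa
Mcl1: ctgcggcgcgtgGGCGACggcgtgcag
Bak1: cttgctctcatcGGAGATgatattaac
Bid: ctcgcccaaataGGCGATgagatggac
Bcl2l11: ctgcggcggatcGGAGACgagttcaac
Bad: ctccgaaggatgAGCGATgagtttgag
Casp8: caggctTGCcaagga

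In all but Bad the small residue is a glycine, and in Bad it is a serine. The stretches lie in coding exons. Those of Bcl2 (chr1:106712575-106712601), Bcl2l1 (chr2:152829697-152829723), Bak1 (chr17:27022531-27022557) and Bid (chr6:120897289-120897315) are on the minus strand. Those of Mcl1 (chr3:95659436-95659462), Bcl2l11 (chr2:128147150-128147176), Bad (chr19:6950792-6950818) and Casp8 (chr1:58844613-58844627) are on the plus strand. The pattern starts at residue 94 of 236 in BCL2, at 90 of 233 in BCL-XL, at 194 of 331 in MCL1 and at 76 of 209 in BAK. In the sensors it starts at residue 90 of 195 in BID, 150 of 196 in BIM and 151 of 204 in BAD.

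The unit of all levels is FPKM as deposited, a count of fragments divided by transcript length and library size, so levels are comparable between genes per length. All 8 genes passed the filter of 1 FPKM in at least 3 libraries, as did 12847 genes in all. Read depth is unknown. The summed FPKM of a library ran from 516851 to 796980, and the worth of 1 fragment, read from steps among low values, ran from 0.871 to 1.41 times that of Control 1. The 10 enterocyte markers were above 1 FPKM in every library, as the tissue label says. Melphalan 2 stood apart from the other Melphalan libraries in its immune cell markers, and the mean residual variance of all tested genes was 0.42 in Melphalan against 0.0806 in MSC+Mel.

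Across the 4 groups the levels kept a wide order. Mcl1, Casp8 and Bak1 were the most abundant, with Control means of 108 ± 24, 74.2 ± 19 and 71.2 ± 17 FPKM (SD, n = 3). Bad at 33.7 ± 9.7 and Bcl2l1 at 22.5 ± 6.8 followed, then Bid at 7.69 ± 2.3, Bcl2l11 at 3.82 ± 1.0 and Bcl2 at 1.03 ± 0.31. Of the neighbours in this order, Casp8 and Bak1 overlapped among their Control libraries, as did Bad and Bcl2l1, and all others were apart. Between its lowest and its highest library, Bcl2 varied 6.06-fold, Bcl2l11 3.08-fold, Bad 2.72-fold, Bcl2l1 2.64-fold and Bak1 2.39-fold, while Mcl1 varied 1.98-fold and Casp8 1.84-fold.

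**Figure D1:**
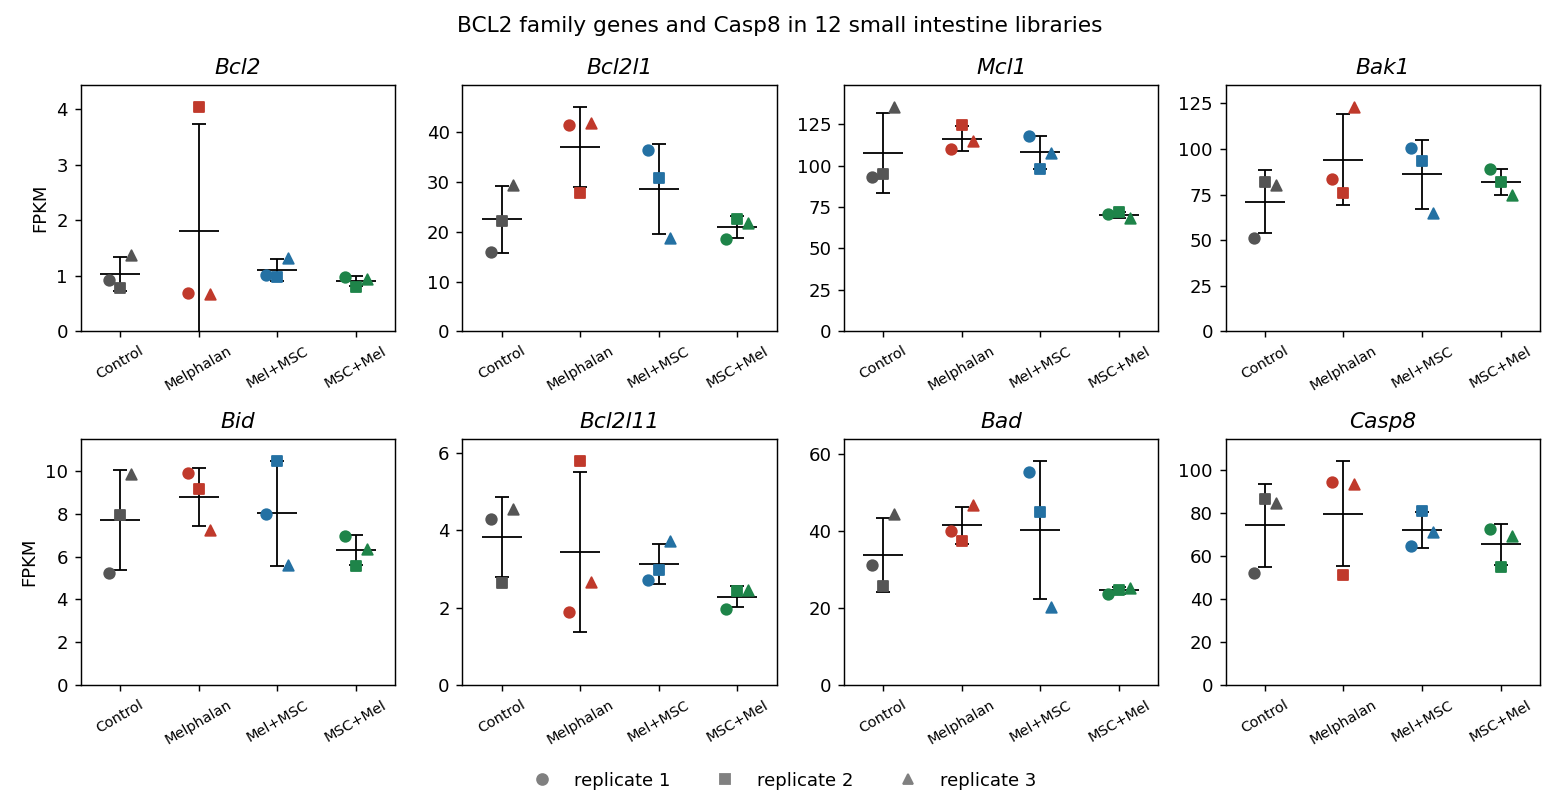
Level of each of the 8 genes in FPKM (vertical axes, each starting at 0) in the Control, Melphalan, Mel+MSC and MSC+Mel libraries. Points are single libraries, bars the group mean and error bars the SD (n = 3), which for Bcl2 in Melphalan reaches below 0 and is cut there. The 3 MSC+Mel libraries of Mcl1 sit between 68.2 and 71.9 FPKM, below the other 9 libraries, and Melphalan 2 alone lifts Bcl2, to 4.03 FPKM.

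Among the guardians, Mcl1 was lower in MSC+Mel than in each other group, without overlap. MCL1 is a short-lived guardian that turns over quickly. Its FPKM was 92.9, 94.7 and 135 in Control, 110, 124 and 115 in Melphalan, 118, 98.1 and 108 in Mel+MSC, and 70.7, 71.9 and 68.2 in MSC+Mel. The MSC+Mel values were the 3 lowest of the 12, and the 9 other libraries overlapped between their groups. On the scale of log2(FPKM + 1), MSC+Mel differed from Melphalan by -0.72 (SE 0.18, 95% interval -1.11 to -0.33), with an unadjusted p of 0.00184 and an adjusted p of 0.0692 in limma, short of the threshold of 0.05. The differences from Mel+MSC (-0.61, limma adjusted p = 0.284) and from Control (-0.59, interval -0.98 to -0.20, limma adjusted p = 0.248) did not pass either. Melphalan itself differed from Control by 0.13 (interval -0.26 to 0.52, limma adjusted p = 0.729). In bulk tissue, fewer cells of a type and less RNA per cell cannot be told apart. The summed FPKM of 7 smooth muscle markers was also low in MSC+Mel, between 216 and 264. It was 319 to 556 in Control, 307 to 444 in Melphalan and 259 to 464 in Mel+MSC. Of these markers, Des, Tagln, Acta2 and Lmod1 did not overlap between MSC+Mel and Melphalan, and Cnn1, Myh11 and Actg2 did. The enterocyte marker sum was also lower in MSC+Mel (19206 to 22853) than in Melphalan (32785 to 68595). In that sum MSC+Mel lay within the ranges of Control and Mel+MSC. The part of these cell types in the Mcl1 difference was not tested.

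The size of the Mcl1 difference moved with the scaling between libraries. The MSC+Mel libraries had low summed FPKM, 516851 to 557743, against 584241 to 796980 in Melphalan. With every library set to the same sum, an alternative chosen after seeing the data, Mcl1 was 80.1, 87.8 and 82.1 FPKM in MSC+Mel and 88.2 or more in the 9 other libraries, so the groups still did not overlap. The difference from Melphalan was then -0.30 (limma adjusted p = 0.338). That rescaling moved the median of all genes by 0.35, from -0.05 to 0.30, and relative to that median Mcl1 differed by -0.59. In a fit on the 6 libraries of the 2 groups alone, Mcl1 passed at a limma adjusted p of 0.0438, with 636 genes called against 159 with all 12 libraries.

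Bcl2l1, the gene of BCL-XL, was highest in Melphalan. It stood at 15.8, 22.1 and 29.4 FPKM in Control, 41.4, 27.8 and 41.8 in Melphalan, 36.4, 30.8 and 18.6 in Mel+MSC, and 18.5, 22.6 and 21.8 in MSC+Mel. Melphalan 1 and 3 lay above all other libraries, and Melphalan 2 overlapped with Control. The log2 difference of Melphalan from Control was 0.71 (SE 0.28, interval 0.10 to 1.33, unadjusted p = 0.0271, limma adjusted p = 0.212). MSC+Mel lay wholly below Melphalan, by -0.77 (interval -1.39 to -0.16, limma adjusted p = 0.151). Mel+MSC differed from Melphalan by -0.39 (limma adjusted p = 0.569), with 2 libraries above the Control range and 1 within it. The summed FPKM of the 10 enterocyte markers moved with Bcl2l1. It was 47397, 32785 and 68595 in Melphalan, 14152, 17042 and 28181 in Control, 35101, 30182 and 11440 in Mel+MSC and 20809, 22853 and 19206 in MSC+Mel. Melphalan lay above Control without overlap in this sum. Of its markers, Fabp1, Fabp2, Apoa1 and Alpi did not overlap between these groups, and Sis, Lct, Vil1, Slc5a1, Anpep and Apoa4 did. Sis was 2871, 1026 and 2204 FPKM in Melphalan and 3247, 2364 and 2719 in MSC+Mel, so the markers did not all move with Bcl2l1. The part of the enterocyte share of the tissue in the level of Bcl2l1 was not tested.

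Bcl2 itself was low in the tissue. Its FPKM was 0.931, 0.779 and 1.37 in Control, 0.695, 4.03 and 0.665 in Melphalan, 1.02, 0.969 and 1.33 in Mel+MSC, and 0.986, 0.803 and 0.939 in MSC+Mel. Melphalan 2 held the highest value of the 12 and the other 2 Melphalan libraries the lowest 2. The log2 difference of Melphalan from Control was 0.27 (interval -0.53 to 1.06, limma adjusted p = 0.730), and without Melphalan 2 it was -0.26 (limma adjusted p = 0.462). Differences on this scale understate changes of genes as low as Bcl2.

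Lymphocyte markers were high with Bcl2 in that library, as were markers of some other cell types. The summed FPKM of 8 B cell markers, among them Ms4a1, Cd79a and Pax5, was 506 in Melphalan 2, against 0.813 and 5.61 in the other Melphalan libraries, 2.57 to 43.1 in Control, 3.86 to 33.9 in MSC+Mel and 1.88 to 60.7 in Mel+MSC. Fcer2a was at 0 in 7 libraries and Pax5 in 4. For 10 T cell markers the sum was 182 in Melphalan 2 and 35.2 or less in the other 2. It lay between 20.9 and 48.7 in Control, between 19.4 and 25.8 in MSC+Mel and between 13.7 and 33.2 in Mel+MSC. All 8 B cell markers also reached 1 FPKM in Control 2, Mel+MSC 2 and MSC+Mel 1, where Bcl2 stood at 0.779, 0.969 and 0.986 FPKM. Melphalan 2 was also the highest library for the sum of macrophage and monocyte markers, with 261 FPKM, followed by Melphalan 3 at 100. In that sum C1qa, C1qb and C1qc stood at 96.6, 62.6 and 50.4 FPKM, and Csf1r, Cd68 and Fcgr1 were also highest in Melphalan 2. Adgre1, Mrc1 and Cd14 were higher in other libraries, and Itgam was lowest in Melphalan 2. For the sum of endothelial cell markers Melphalan 2 was highest too, with 44.1, followed by MSC+Mel 3 at 31.1. Of these markers it was highest for Pecam1, Eng and Cdh5, and other libraries were higher for Vwf, Tek, Flt1, Emcn and Kdr. The part of lymphocytes or of these other cells in the level of Bcl2 was not tested.

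**Figure D2:**
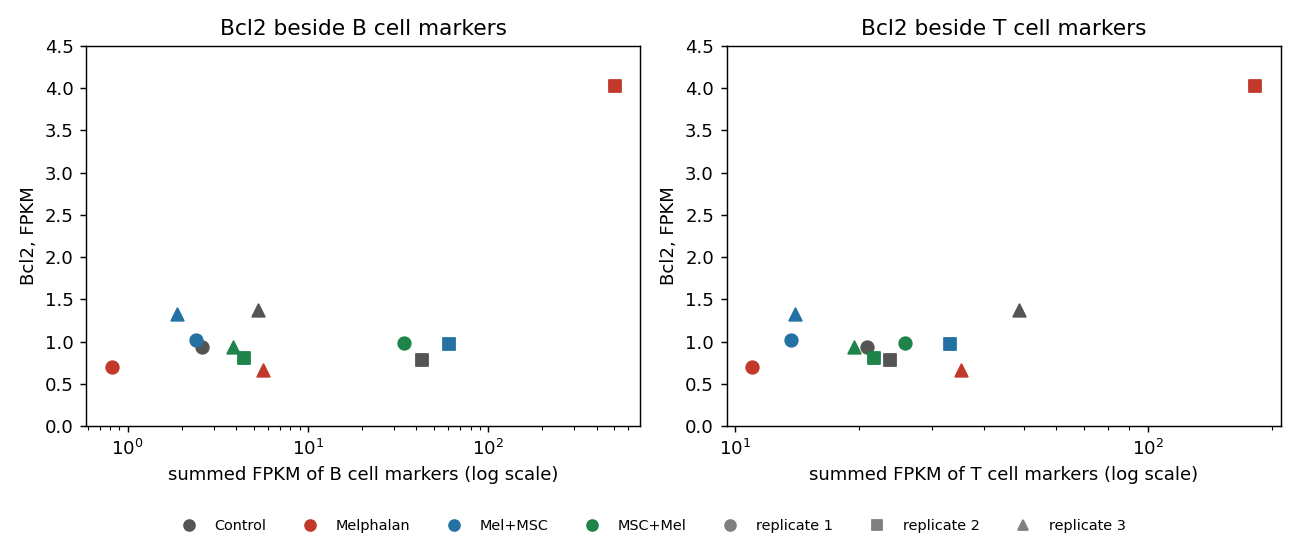
Level of Bcl2 in FPKM (vertical axis) against the summed FPKM of 8 B cell and of 10 T cell markers (horizontal log axes), 1 point per library coloured by group. Melphalan 2 is the point at the upper right, with Bcl2 at 4.03 FPKM, and the 11 other libraries lie at 1.37 FPKM or less, with B cell sums up to 60.7 and T cell sums up to 48.7.

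The effector Bak1 spread widely within groups. BAK sits in the outer mitochondrial membrane and, like its relative BAX, can form the pore. Bak1 stood at 51.4, 81.9 and 80.2 FPKM in Control, 83.8, 76.0 and 123 in Melphalan, 101, 93.2 and 64.8 in Mel+MSC, and 89.2, 81.8 and 74.8 in MSC+Mel. All groups overlapped, with the highest value in Melphalan 3 and the lowest in Control 1. Melphalan differed from Control by 0.40 on the log2 scale (interval -0.16 to 0.95, limma adjusted p = 0.431) and MSC+Mel from Melphalan by -0.17 (interval -0.73 to 0.38, limma adjusted p = 0.711). The second difference was 0.25 with equal sums, so its sign depends on the scaling. The median of all genes was then 0.30, and relative to it Bak1 differed by -0.05.

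Of the sensors, Bad was lowest in MSC+Mel as a group. BAD is the sensor that binds BCL-XL and BCL2 and is kept away from them by phosphorylation. Its FPKM was 31.1, 25.6 and 44.5 in Control, 40.0, 37.5 and 46.8 in Melphalan, 55.4, 44.9 and 20.3 in Mel+MSC, and 23.6, 24.8 and 25.2 in MSC+Mel. The MSC+Mel libraries lay together below all Melphalan and all Control libraries, and Mel+MSC spanned the whole range of the 12. With equal sums MSC+Mel (26.7, 30.3 and 30.4 FPKM) still lay below Melphalan (32.1 or more) and overlapped with Control, where Control 2 was at 27.4. MSC+Mel differed from Melphalan by -0.73 (SE 0.32, interval -1.43 to -0.03, unadjusted p = 0.0424, limma adjusted p = 0.209), and from Control by -0.41 (interval -1.11 to 0.29, limma adjusted p = 0.681). In the fit on those 6 libraries alone the first of these reached a limma adjusted p of 0.0457. Against Mel+MSC the difference was -0.58 (limma adjusted p = 0.482), and without Mel+MSC 3 it was -0.995 (limma adjusted p = 0.0449). In that comparison 0 to 398 of all genes were called when 1 library was left out, against 1 with all 12 libraries.

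Bad and Bcl2l1 also ran with the summed FPKM of the libraries. The 5 libraries with the highest sums were Melphalan 3, Melphalan 1, Mel+MSC 1, Control 3 and Mel+MSC 2, and Bad was at 40.0 FPKM or more in each and at 37.5 or less in the other 7. Bcl2l1 was at 29.4 or more in those 5 and at 27.8 or less in the other 7. With equal sums, MSC+Mel differed from Melphalan by -0.32 for Bad (limma adjusted p = 0.385). For Bcl2l1 this was -0.36 (limma adjusted p = 0.221), and Melphalan differed from Control by 0.49 (limma adjusted p = 0.197). Relative to the median of all genes with equal sums, these differences were -0.61, -0.66 and 0.65. Bad shares exon bases with Gpr137 on the other strand, and the strand setting of the libraries is not stated. Gpr137 ran from 7.47 to 18.1 FPKM, with 7.47, 7.86 and 7.95 in MSC+Mel against 18.0, 15.6 and 18.1 in Melphalan. The part of the library sums and of the shared bases in these differences was not tested.

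**Figure D3:**
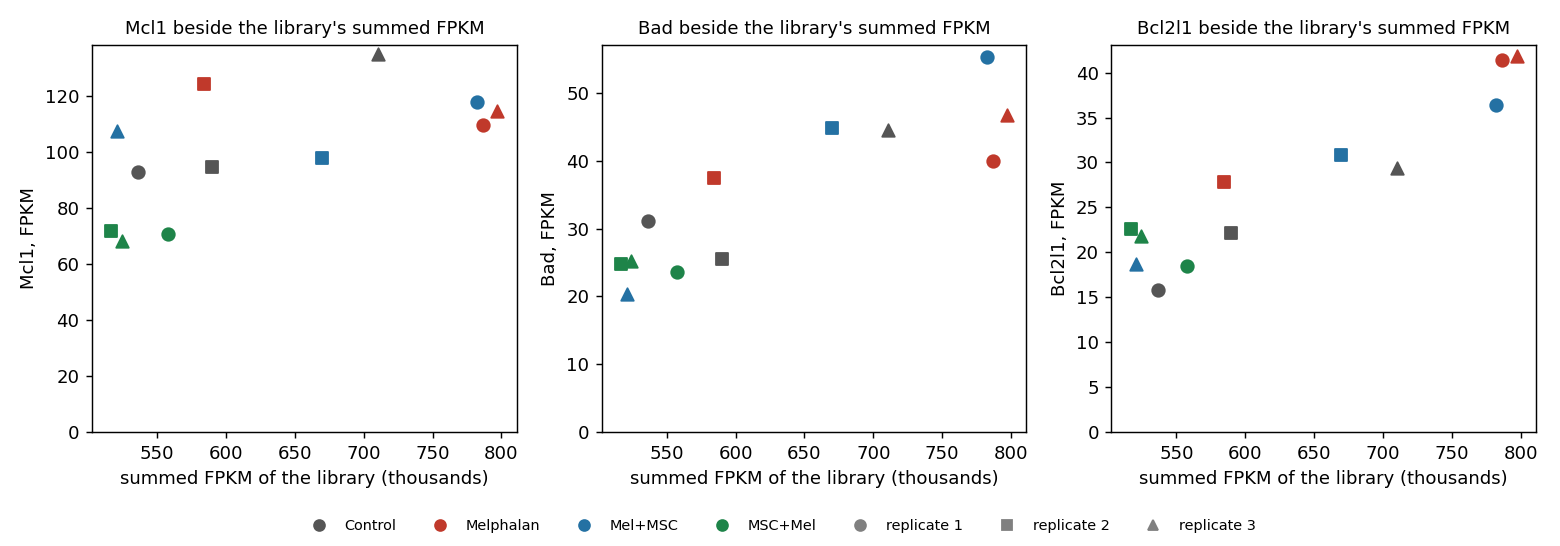
Levels of Mcl1, Bad and Bcl2l1 in FPKM (vertical axes) against the summed FPKM of each library (horizontal axes, not starting at 0), 1 point per library coloured by group. Bad and Bcl2l1 are higher in the libraries with high sums, and the 3 MSC+Mel points of Mcl1 lie below Control 1 and Mel+MSC 3, whose sums are within their range.

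Bid, the substrate of caspase-8, stood at 5.23, 7.96 and 9.88 FPKM in Control, 9.89, 9.16 and 7.26 in Melphalan, 7.99, 10.5 and 5.59 in Mel+MSC, and 6.96, 5.56 and 6.36 in MSC+Mel. MSC+Mel lay just below Melphalan, by -0.42 (interval -0.96 to 0.13, limma adjusted p = 0.342), and the other groups overlapped. With equal sums MSC+Mel (7.88, 6.80 and 7.67 FPKM) overlapped with Melphalan (7.93, 9.90 and 5.75). Bid shares exon bases with Bcl2l13, which ran from 3.77 to 8.06 FPKM. Bak1 and Bcl2 share bases with Ggnbp1 (at most 2.65 FPKM) and D630008O14Rik (at most 0.224 FPKM).

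Bcl2l11 encodes BIM, a sensor that binds all guardians. Its FPKM was 4.28, 2.64 and 4.54 in Control, 1.88, 5.80 and 2.66 in Melphalan, 2.71, 2.98 and 3.72 in Mel+MSC, and 1.97, 2.43 and 2.46 in MSC+Mel. Like Bcl2, it was highest in Melphalan 2, while Melphalan 1 held the lowest value of the 12. MSC+Mel lay below Control (-0.53, interval -1.17 to 0.11, limma adjusted p = 0.528) and below Mel+MSC (-0.33, interval -0.97 to 0.30, limma adjusted p = 0.682) without overlap. With equal sums MSC+Mel ran from 2.23 to 2.97 FPKM and overlapped with both, with Control 2 at 2.83 and Mel+MSC 2 at 2.81. Melphalan differed from Control by -0.19 (interval -0.83 to 0.45, limma adjusted p = 0.761).

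In each group, the SD of Casp8 was a larger part of its mean than that of Mcl1. Between its lowest and its highest library, Casp8 varied least of the 8 genes. It stood at 52.0, 86.2 and 84.3 FPKM in Control, 94.2, 51.2 and 93.1 in Melphalan, 64.4, 80.8 and 70.8 in Mel+MSC, and 72.6, 54.6 and 69.0 in MSC+Mel. All groups overlapped, and Melphalan 2 and Control 1 held the lowest values. Melphalan differed from Control by 0.08 (interval -0.51 to 0.68, limma adjusted p = 0.894), an interval that leaves room for a change of up to 0.68 in log2.

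Setting the guardians against the death-promoting members gives a ratio per library, as a description with no test. The summed FPKM of Bcl2, Bcl2l1 and Mcl1 was 110, 118 and 166 in Control, 152, 156 and 157 in Melphalan, 155, 130 and 128 in Mel+MSC, and 90.2, 95.3 and 90.9 in MSC+Mel. Mcl1 made up 72.3% to 84.7% of that sum, a share of the level and not of the differences between groups. In mean FPKM, Bcl2l1 rose more than Mcl1 from Control to Melphalan. From Melphalan to MSC+Mel, Mcl1 fell more than Bcl2l1 in mean FPKM, while the log2 differences were -0.72 for Mcl1 and -0.77 for Bcl2l1. Divided by the sum of Bak1, Bid, Bcl2l11 and Bad, the guardians came to 1.19, 0.996 and 1.19 in Control, 0.875 to 1.22 in Melphalan, 0.933, 0.857 and 1.35 in Mel+MSC, and 0.741, 0.832 and 0.835 in MSC+Mel. The MSC+Mel ratios were the 3 lowest of the 12, and a scaling of the whole library does not enter them. That order did not hold once Bax, the other effector, was added to the death-promoting sum. The ratio was then 0.618, 0.693 and 0.697 in MSC+Mel, 0.597 in Melphalan 3 and 0.666 in Mel+MSC 2. Bak1 stood above Mcl1 in all 3 MSC+Mel libraries and in Melphalan 3, and below it in the other 8.

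None of the 8 genes passed an adjusted p of 0.05 in limma in any of the 6 comparisons. In Melphalan against Control, where 1.33% of all tested genes passed (171 genes, and 73 in a fit blocked on replicate number), 7 of the 8 lay above 0 and 1 below, with a median log2 difference of 0.23 beside 0.03 for all genes. With equal sums 4 lay above 0 and 4 below, with a median of 0.04 beside -0.16 for all genes. Bcl2l1 alone had an unadjusted p under 0.05, a level that 18.2% of all genes reached. In Mel+MSC against Melphalan (0.156% of all genes passed, 13.6% unadjusted) all 8 lay below 0, with a median of -0.13 beside -0.01, and 0 of the 8 had an unadjusted p under 0.05. That count also turned to 4 below and 4 above 0 with equal sums, where the median was 0.002 beside 0.10 for all genes.

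MSC+Mel against Melphalan gave the most separated values. All 8 genes lay below 0, with a median of -0.38 beside -0.05 for all genes, and Mcl1, Bcl2l1 and Bad had an unadjusted p under 0.05. Of all tested genes, 1.24% passed the adjusted and 22.2% the unadjusted threshold. The libraries of Mcl1, Bcl2l1, Bad and Bid did not overlap and were lower in MSC+Mel, 4 of 8 genes, as were 17.2% of all genes. With equal sums Mcl1, Bcl2l1 and Bad still did not overlap, and Bid did. The share of all genes was not taken with equal sums. Bak1 and Casp8 turned to 0.25 and 0.18 with equal sums, where the other 6 genes stayed below 0. The median of all genes was then 0.30, and relative to it Bak1 differed by -0.05 and Casp8 by -0.11.

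Against Mel+MSC (0.00778% of all genes passed, 12.2% unadjusted) MSC+Mel was lower in mean for all 8 genes, with a median of -0.30 beside -0.01. With equal sums it was lower for 6 of 8, with a median of -0.07 beside 0.22 for all genes. Mcl1 had an unadjusted p under 0.05, and Mcl1 and Bcl2l11 did not overlap, as did 11.8% of all genes in that direction. With equal sums Bcl2l11 overlapped and Mcl1 did not. Against Control (0.171% of all genes passed, 11.7% unadjusted), 7 of 8 lay below 0 in MSC+Mel, with a median of -0.19 beside -0.01. With equal sums 4 of 8 did, with a median of -0.01 beside 0.15 for all genes. Mcl1 had an unadjusted p under 0.05, and Mcl1, Bad and Bcl2l11 did not overlap, beside 14.4% of all genes. With equal sums Bad and Bcl2l11 overlapped and Mcl1 did not. Mel+MSC against Control (0% of all genes passed, 5.4% unadjusted) had 6 genes above 0 and 2 below, with a median of 0.06 beside 0.01. It had 4 and 4 with equal sums, with a median of 0.002 beside -0.06 for all genes. An unadjusted p under 0.05 was reached there by 0 of the 8 genes. The comparisons share their libraries, so their values for a gene are not independent of each other.

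**Figure D4:**
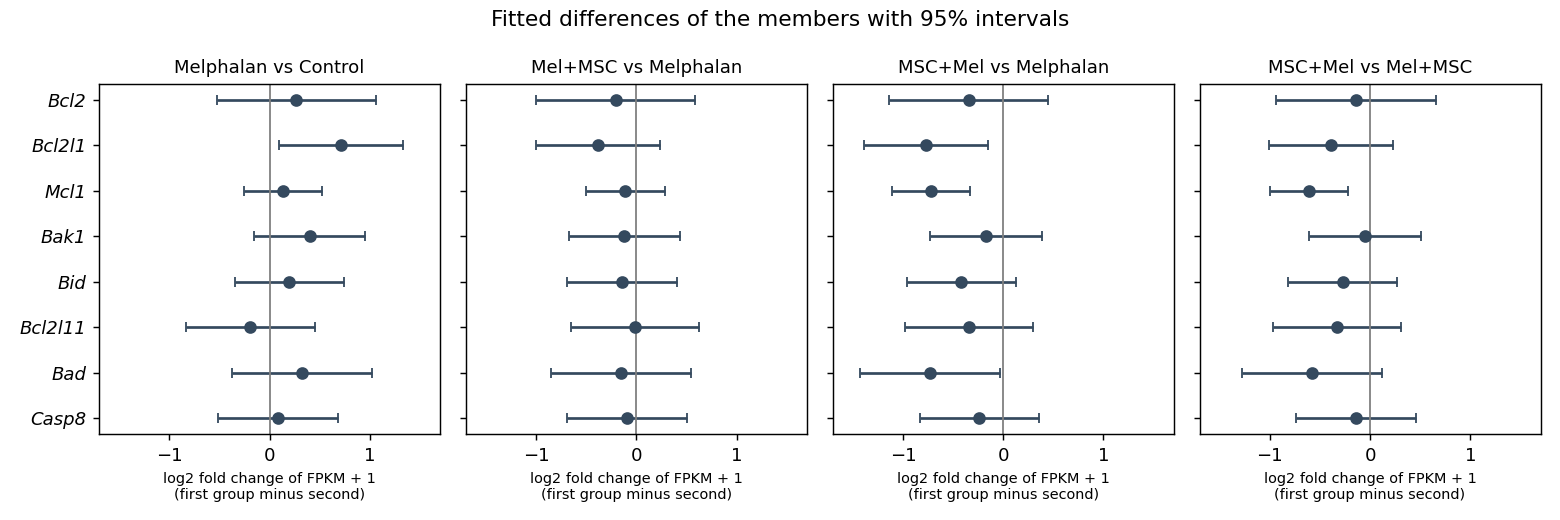
Difference in log2(FPKM + 1) of each of the 8 genes in 4 of the comparisons (horizontal axes, first group minus second), with points for the limma estimate and lines for the 95% interval (3 libraries a group). In MSC+Mel against Melphalan the intervals of Mcl1, Bcl2l1 and Bad lie below 0, and none of the 8 passed an adjusted p of 0.05 in these 4 comparisons.

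The wider death pathway was read from 5 lists of genes. Of 15 other BCL2 family genes 12 were tested, of 9 other caspases 8, of 13 genes of the apoptosome and its inhibitors all 13, of 14 death receptors and adaptors 12, and of 13 p53 targets of cell death all 13. The p53 list shares Fas, Tnfrsf10b and Apaf1 with the other lists. In limma, only Zmat3, of the p53 list, passed in any of the 6 comparisons. At an unadjusted p under 0.05 in Melphalan against Control were 2 other BCL2 genes above 0, 2 caspases below, 1 apoptosome gene above and 2 below, 1 death receptor gene above and 1 below, and 5 p53 targets above. Over all tested genes that share was 18.2% in either direction, so 2 of 12, 2 of 8, 3 of 13 and 2 of 12 lay near it. Zmat3, a p53 target that binds RNA, was 4.43, 4.17 and 4.70 FPKM in the Melphalan libraries and 2.54, 1.99 and 2.30 in the Control libraries, with no overlap. The log2 difference was 0.73 (SE 0.16, limma adjusted p = 0.0487), and over its 13 alternatives the adjusted p ran from 0.0423 to 0.253. In the fit of all 12 libraries blocked on replicate number it was 0.0861.

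Bax, the effector beside Bak1 and itself a p53 target, was 24.2 ± 7.0 FPKM in Control and 70.3 ± 18 in Melphalan (SD, n = 3). The log2 difference of 1.51 had a limma adjusted p of 0.0798, and its libraries did not overlap. In MSC+Mel Bax was 22.9 ± 1.4, lower than Melphalan by -1.54 (limma adjusted p = 0.0692), and in Mel+MSC 36.3 ± 18 (limma adjusted p = 0.284 against Melphalan). Bak1 differed by 0.40 where Bax differed by 1.51, and the difference between the pair was not tested.

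Among the other BCL2 family genes the median was 0.27 in Melphalan against Control. Bnip3, a mitochondrial member linked to hypoxia and mitophagy, was 7.68 ± 1.8 FPKM in Control and 22.5 ± 11 in Melphalan (log2 difference 1.35, limma adjusted p = 0.0573). Its relative Bnip3l was 27.9 in Control and 39.0 in Melphalan on average (0.47, limma adjusted p = 0.163). The other caspases had a median of -0.20. Casp2, an initiator tied to DNA damage and cell division, was 13.9 ± 1.5 in Control and 8.17 ± 1.5 in Melphalan (-0.71, limma adjusted p = 0.0945), and Casp1, the inflammasome caspase, 127 and 87.7 (-0.54, limma adjusted p = 0.160).

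In the apoptosome list (median 0.11), Birc5, the gene of survivin, a protein of dividing cells, was 46.6 FPKM in Control and 23.2 in Melphalan (-1.03, limma adjusted p = 0.118). Dffb, the nuclease that cuts DNA in apoptosis, was 5.42 and 3.19 (-0.64, limma adjusted p = 0.141). The summed FPKM of 10 markers of cycling cells was 119 to 257 in Control and 33.3 to 77.2 in Melphalan. That of 8 crypt stem cell markers was 158 to 494 and 34.4 to 68.9. Among these 8 markers, Olfm4 and Prom1 were lower in Melphalan without overlap, while Axin2, Sox9, Ascl2, Lgr5, Smoc2 and Rgmb overlapped. Olfm4 was at least 79.5 in every Control library, against at most 7.99 after melphalan alone. The part of fewer cycling or stem cells in the differences of Birc5 and Dffb was not tested. Among death receptors (median 0.16), Tnfrsf1a, the main receptor of TNF, was 53.1 and 78.3 (0.53, limma adjusted p = 0.175). Tnfsf10, the ligand TRAIL, was 24.3 and 15.9 (-0.58, limma adjusted p = 0.225). In MSC+Mel against Melphalan the medians were -0.23, 0.06, -0.33, -0.09 and -0.52 for the other BCL2 genes, caspases, apoptosome, death receptors and p53 targets, beside -0.05 for all genes and -0.38 for the 8 genes.

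**Figure D5:**
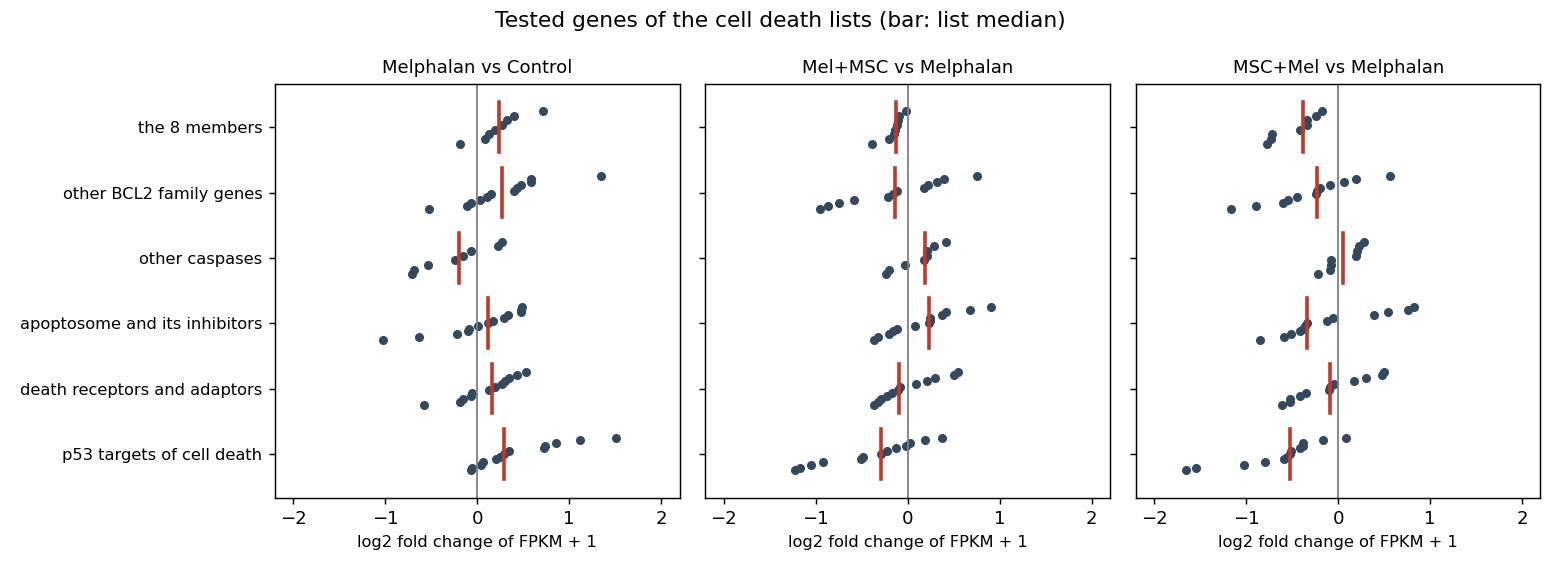
Difference in log2(FPKM + 1) of the tested genes of the 8 described here and of the 5 pathway lists (1 point per gene, a bar at the list's median) in Melphalan against Control, Mel+MSC against Melphalan and MSC+Mel against Melphalan. The medians of the 8 genes are 0.23, -0.13 and -0.38, and the p53 targets of cell death have medians of 0.29, -0.29 and -0.52.

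The genes whose levels ran most like each of the 8 over the 12 libraries were found by Pearson's r of log2(FPKM + 1), given with no test. Points of 1 library share its depth and scaling. For Bcl2 they were Map3k14 (0.945), Cklf (0.936) and Cyth4 (0.931), and Cyth4 stood at 11.4 FPKM in Melphalan 2 and at 1.26 or less elsewhere, so that library sets these values. For Bcl2l1 they were Lipe (0.974), the hormone-sensitive lipase, Oit1 (0.971) and Mlycd (0.969), the malonyl-CoA decarboxylase. For Mcl1 they were Tmem81 (0.934), Btg1 (0.929), an inhibitor of proliferation, and Gtpbp6 (0.927). Btg1 stood at 20.0, 24.0 and 25.8 FPKM in MSC+Mel and at 41.1 or more in the 9 other libraries, the same split as Mcl1.

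For Bak1 the most alike gene was Cycs (0.956), which encodes cytochrome c, followed by Rab11a (0.939) and Fam3b (0.933). Cycs was highest in Melphalan 3 at 266 FPKM and lowest in Control 1 at 78.4, the same libraries as for Bak1. For Bid they were Bcat2 (0.909), Lxn (0.897) and Rps24-ps3 (0.882), named as a pseudogene, whose values are uncertain since reads of its parent gene may be counted there. For Bcl2l11 they were Irf2bpl (0.887), Wnk1 (0.852) and H2bu2 (0.851), for Bad Smdt1 (0.972), Commd4 (0.965) and Rnf5 (0.963), and for Casp8 Nostrin (0.900), Sh3glb1 (0.874) and Chmp1b (0.845). Sh3glb1 encodes endophilin B1, known as a binding partner of BAX.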

How the data were processed

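RNA sequencing of mouse small intestine was used as deposited, in 12 libraries of 4 groups. Per the labels' protocols, the kits were QIAamp AllPrep for RNA and TruSeq RNA for libraries, and strand is not stated. The authors, per the submitters' processing notes, used STAR, Cufflinks and Cuffnorm (versions not given) with the builds mm10 and GRCm38, and the deposited values are FPKM. The scaling between libraries is not given in the sources used here. FPKM give no counts, so depth is unknown and precision rests on the spread between libraries.

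Values were put on the log2(FPKM + 1) scale and tested in limma 3.58.1 (R 4.3.3). The filter asked for 1 FPKM in 3 libraries, which 12847 genes met. The 12 libraries shared 1 fit with 8 residual degrees of freedom and a variance trend. Benjamini-Hochberg adjustment ran over all tested genes of a comparison, of which there were 6, with a threshold of 0.05. An exact permutation test of 3 against 3 libraries cannot go below 0.1 and was not used. Tested on simulated data for Melphalan against Control with 12847 genes, the fit recovered 2%, 24%, 80% and 96% of genes with true log2 changes of 0.5, 1, 2 and 3. The simulation gave a gene the same spread in all groups, while the mean residual variance was 0.42 in Melphalan and 0.18 in Control. It changed only genes with a mean log2(FPKM + 1) above 2, so none as low as Bcl2. The recovery with unequal spreads or for such low genes is thus not known.

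The 8 genes, the pathway lists and the marker lists were chosen with earlier results of these data known. A gene of the B cell list is not reported here and was left out of its sum. Genes were named by rule: all 8, of each pathway list the genes called in any comparison and the 2 with the smallest p in Melphalan against Control, and for each of the 8 the 3 most correlated genes, predicted genes left out. Alternatives changed the pseudocount, the filter, the scaling, the libraries in the fit and the block, and left out each library in turn. The replicate numbers of the labels were checked by correlating the deviations of libraries from their group means. Same-numbered pairs of Melphalan and Control gave 0.124, 0.233 and 0.184, all over 0.1. Differently numbered pairs of these 2 groups ran from -0.184 to 0.0412. The numbers were taken as a possible pairing of these 2 groups, from the data and not from the labels. In the other 5 comparisons at least 1 same-numbered pair was below 0.1, and the differently numbered Control 1 and Mel+MSC 3 reached 0.462. The block was fitted over all 12 libraries and not over these 2 groups alone. Positions and coding sequences came from GENCODE M21 (GRCm38). Python 3.11.15 with matplotlib 3.10.9 drew the figures.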

Additional observations from a re-analysis of the deposited data

How the results depend on the processing

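Of the 8 genes, 0 were called in the 6 comparisons with 12 libraries, and 0 under each alternative except 2 (Mcl1 and Bad) in MSC+Mel against Melphalan when only the compared groups were fitted. Leaving out a library gave 0 to 1 in MSC+Mel against Mel+MSC, the 1 being Bad without Mel+MSC 3. In MSC+Mel against Melphalan, Mcl1 ran from -0.76 to -0.67 with adjusted p from 0.0694 to 0.222 when 1 library was left out. In limma, counts over all genes were 171, 20, 159, 1, 0 and 22 for Melphalan against Control, Mel+MSC against Melphalan, MSC+Mel against Melphalan, MSC+Mel against Mel+MSC, Mel+MSC against Control and MSC+Mel against Control. In that order they were 187, 19, 200, 2, 1 and 19 with a pseudocount of 0.1, 63, 1, 50, 2, 2 and 19 without a filter, 132, 13, 159, 0, 0 and 24 with a mean of 5 FPKM, 187, 13, 217, 0, 0 and 52 with quantile normalization, 170, 19, 166, 1, 0 and 22 with median-of-ratios, 106, 8, 396, 0, 0 and 42 with equal sums (chosen after seeing the data, as were the alternatives for Zmat3), and 4, 0, 636, 1, 0 and 55 with the compared groups only. Leaving out a library gave 9 to 420, 0 to 16, 6 to 401, 0 to 398, 0 to 1 and 0 to 8. The causes were not tested.

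A replicate block in the fit gave counts of 73, 3, 20, 0, 1 and 5, with 0 of the 8 genes called. The block ended the call of Zmat3 in Melphalan against Control and changed no call of the 8 genes. Outside that comparison, correlations of same-numbered libraries ran from -0.369 to 0.396, and the libraries share only a number.

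Among the values of the 8 genes under the alternatives that keep all libraries of a comparison, 25 changed sign, none of them called, and 345 kept their direction and side of the threshold. The scaling to equal sums moved the median of all genes too, as given above. With a pseudocount of 0.1 Bcl2l11 was 0.011 in Mel+MSC against Melphalan. With quantile normalization Melphalan against Control had Casp8 at -0.11 and Mcl1 at -0.074, Mel+MSC against Melphalan Bcl2l11 at 0.042, MSC+Mel against Melphalan Casp8 at 0.029 and Bak1 at 0.11, MSC+Mel against Mel+MSC Casp8 at 0.050 and Bak1 at 0.18, and Mel+MSC against Control Mcl1 at -0.11. With equal sums Melphalan against Control had Bid at -0.0056, Casp8 at -0.15 and Mcl1 at -0.10, and Mel+MSC against Melphalan Casp8 at 0.046, Bcl2l11 at 0.079, Mcl1 at 0.031 and Bak1 at 0.020. MSC+Mel against Melphalan had Casp8 at 0.18 and Bak1 at 0.25, MSC+Mel against Mel+MSC Casp8 at 0.14 and Bak1 at 0.23, Mel+MSC against Control Bid at -0.026 and Mcl1 at -0.070, and MSC+Mel against Control Bcl2l1 at 0.13, Casp8 at 0.035 and Bcl2 at 0.022.

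Leaving out a library turned these values. In Melphalan against Control they ran from -0.26 to 0.54 for Bcl2, -0.024 to 0.38 for Bid, -0.55 to 0.073 for Bcl2l11 and -0.15 to 0.37 for Casp8. In Mel+MSC against Melphalan they ran from -0.48 to 0.32 for Bcl2, -0.26 to 0.085 for Bak1, -0.33 to 0.065 for Bid, -0.28 to 0.34 for Bcl2l11, -0.43 to 0.27 for Bad and -0.38 to 0.052 for Casp8. In MSC+Mel against Melphalan they ran from -0.61 to 0.18 for Bcl2, -0.31 to 0.034 for Bak1 and -0.61 to 0.013 for Bcl2l11, and against Mel+MSC from -0.24 to 0.071 for Bak1. In Mel+MSC against Control they ran from -0.029 to 0.18 for Bcl2, -0.071 to 0.20 for Mcl1, -0.17 to 0.26 for Bid, -0.11 to 0.59 for Bad and -0.25 to 0.11 for Casp8, and in MSC+Mel against Control from -0.17 to 0.042 for Bcl2 and -0.28 to 0.15 for Bcl2l1.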

Other observations

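The other marker lists gave these summed FPKM, from the lowest to the highest library of a group. Plasma cell markers ran from 2436 to 4762 in Control, from 601 to 3457 in Melphalan, from 1414 to 2741 in MSC+Mel and from 989 to 1011 in Mel+MSC. Macrophage and monocyte markers ran from 35.9 to 46.8 in Control, from 39.7 to 261 in Melphalan, from 46.4 to 71.1 in MSC+Mel and from 27.5 to 60.0 in Mel+MSC. Paneth cell markers ran from 1297 to 2002 in Control, from 496 to 748 in Melphalan, from 641 to 1072 in MSC+Mel and from 419.7 to 1384 in Mel+MSC. Goblet cell markers ran from 5278 to 8477 in Control, from 3271 to 6683 in Melphalan, from 3242 to 4239 in MSC+Mel and from 867 to 6119 in Mel+MSC. Fibroblast markers ran from 55.5 to 147 in Control, from 53.7 to 165 in Melphalan, from 85.2 to 166 in MSC+Mel and from 37.8 to 82.6 in Mel+MSC. Endothelial cell markers ran from 15.99 to 22.8 in Control, from 15.6 to 44.1 in Melphalan, from 16.9 to 31.1 in MSC+Mel and from 8.59 to 13.7 in Mel+MSC. In the groups that received stem cells, crypt stem cell markers ran from 169 to 333 and cycling cell markers from 139 to 205.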
